A study of Homo sapiens with 4 samples.

Results

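Transcripts of 9 genes for H3K9 demethylases, the enzymes that take methyl groups off lysine 9 of histone H3, were compared between untreated and chaetocin-treated U87MG cells. The genes were KDM1A, KDM3A, KDM3B, JMJD1C, KDM4A, KDM4B, KDM4C, KDM7A and PHF8, chosen by name from the 57905 genes of the count tables, and all 9 passed the filter on low counts, which 16416 genes passed. By edgeR's quasi-likelihood test 0 of the 9 were called as changed, where 1.85% of all genes tested were called, so that a count of 0 does not set these 9 apart. KDM7A had the highest log2 fold change, at 0.42, and KDM4B the lowest, at -0.35, although with single samples left out the lowest was JMJD1C, KDM4C or KDM4A in 3 of 4 fits. The 95% interval of each of the 9 log2 fold changes lay within a 2-fold difference in either direction.

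U87MG is an established human glioblastoma line, labelled wild type in all samples. The 2 control samples were untreated, and the 2 chaetocin samples received 50 nM of the drug, dissolved in DMSO, over 24 h. Since the controls got no solvent, chaetocin and DMSO cannot be told apart, and a single cell line was profiled. The labels do not say whether samples of a group came from separate cultures, so the p-values measure only the spread between these samples, which may be technical.

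Methylation of H3K9 marks silent chromatin. SUV39H1 and related methyltransferases place it, HP1 proteins read it, and demethylases remove it. KDM1A is an amine oxidase that uses flavin and acts on mono- and dimethylated lysine. The other 8 carry a JmjC domain, which uses iron, oxygen and 2-oxoglutarate. The KDM3 group acts on mono- and dimethylated H3K9, and the KDM4 group on the di- and trimethylated forms. KDM7A and PHF8 bind trimethylated H3K4 through a PHD finger and act on lower methylation states. Chaetocin, a fungal metabolite, is known to inhibit SUV39H1 along with other enzymes that methylate histones. The paper, however, reports unchanged trimethylated H3K9 in treated cells, at the dose and time used here and at a higher dose. It ascribes the pro-apoptotic effects of the drug to reactive oxygen species and not to a block of SUV39H1. Methylation of H3K9 in the sequenced samples was not tested. The comparison asks only whether transcripts of the demethylases differ after treatment, and not how they respond to a loss of the mark.

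Because the members of a group are related in sequence, exact sharing of windows of 50 bases, the read length, was measured on the GENCODE v29 transcripts (GRCh38). No window of 50 bases was shared between any of the 9 genes. The longest run of identical bases between 2 members of a group is shown, 5′ to 3′ in the transcript, as their longest exact match. Matches with mismatches and reads trimmed below 50 bases were not examined, so exact identity alone does not show that all reads were told apart. The runs were 26 bases for KDM4A and KDM4B, 23 bases for KDM3A and KDM3B, and 23 bases for KDM7A and PHF8.
KDM4A and KDM4B: tacagcatcaactacctgcactttgg
KDM3A and KDM3B: acaacaaatcttcacttagatgt
KDM7A and PHF8: acagggtggatccatgctgtgct

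Other genes shared windows with 4 of the 9. For KDM4A, 46.2% of its windows also occurred in another gene, in the read-through gene AL451062.3, which is not in the count tables, and in the antisense gene KDM4A-AS1. KDM4A-AS1 collected 46 and 93 reads in controls against 85 and 80 with chaetocin. The share was 2.99% for JMJD1C, all of it with JMJD1C-AS1, which had at most 4 reads in a sample. It was 0.840% for KDM4C and 0.242% for KDM4B. How the counting treated strand and shared reads is not given in the sources used here, so reads from the shared stretches cannot be told apart. These stretches made up 38.7% of the windows of KDM4A for AL451062.3 and 7.49% for KDM4A-AS1.

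The libraries held between 21241984 and 32590479 counts, and the 9 genes took between 0.0548% and 0.0627% of them. Each of the 9 had at least 327 reads in every sample. A detection floor of 3 reads corresponded to between 0.0844 and 0.138 CPM, for counting error only. CPM are reads of a gene per 1000000 reads of the library, after TMM scaling. Of 9 markers of glioma and mesenchymal cells, VIM, CD44 and TNC were abundant, GFAP was at 1.02 CPM or less, and SOX2 and S100B had no read in either control sample. The summed level of this list was 8021 and 6891 CPM in the controls and 5268 and 3188 CPM with chaetocin, and CHI3L1 was called as lower. Markers of leukocytes summed to 0.492 and 0.557 CPM in the controls and to 1.52 and 2.45 CPM with chaetocin, and CD3E had no read. PTPRC had 0 and 1 reads in controls, under the detection floor, against 15 and 27 with chaetocin, and it passed the filter on low counts only through the chaetocin samples, so its call as higher was in part fixed by that filter. Epithelial markers summed to 2.66 and 2.26 CPM against 4.46 and 3.91 CPM, and endothelial markers to 8.81 and 13.2 CPM against 5.47 and 5.94 CPM, with 0 of either list called. The endothelial sum was nearly all KDR, with some CDH5, and PECAM1 was not matched to an identifier. The part of the marker levels in the values of the demethylases was not tested.

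KDM1A (ENSG00000004487), also known as LSD1, lies on chromosome 1 of GRCh38 from 23019443 to 23083689. It collected 2140 and 2570 reads in controls against 1711 and 2784 with chaetocin. After normalization these were 87.7 and 89.4 CPM in controls and 78.6 and 78.4 CPM with chaetocin. Both chaetocin samples were thus lower than both controls, and the replicates of each group lay close together. On the log2 scale the difference was -0.17 (standard error 0.14, 95% interval -0.49 to 0.14), and edgeR's quasi-likelihood test gave an adjusted p of 0.518.

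In the KDM3 group, KDM3A (ENSG00000115548, chromosome 2, 86440647 to 86492716) had the most reads of the 9 genes. Its levels were 185 and 166 CPM in controls and 163 and 170 CPM with chaetocin. The groups overlapped, and the controls differed more from each other than the group means did. Its log2 fold change was -0.07 (standard error 0.15, 95% interval -0.41 to 0.26, adjusted p = 0.825), and with upper-quartile normalization it was 0.0018.
KDM3B (ENSG00000120733, chromosome 5, 138352596 to 138437028) had 57.7 and 59.6 CPM in controls and 54.5 and 71.5 CPM with chaetocin. The chaetocin samples lay on either side of the controls. Chaetocin differed from control by 0.11 on the log2 scale (standard error 0.17, 95% interval -0.28 to 0.49, adjusted p = 0.778), and without chaetocin sample 2 it was -0.11.
JMJD1C (ENSG00000171988, chromosome 10, 63167221 to 63521850) belongs to the same group, although its demethylase activity has been disputed. It had 81.9 and 97.2 CPM in controls and 75.7 and 85.5 CPM with chaetocin, and chaetocin sample 2 exceeded control sample 1. Chaetocin differed from control by -0.15 on the log2 scale (standard error 0.16, 95% interval -0.51 to 0.21, adjusted p = 0.632).

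**Figure D1:**
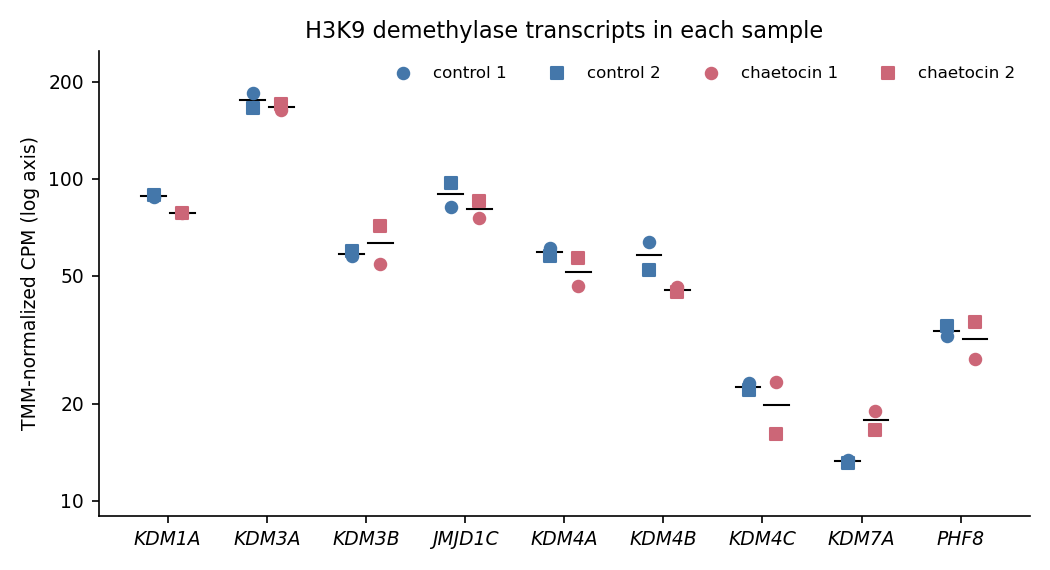
TMM-normalized CPM (log axis) of the 9 demethylase genes in each of the 4 samples, with circles for sample 1, squares for sample 2 and horizontal lines for the group means. KDM3A is the highest, between 163 and 185 CPM, and KDM7A the lowest by group mean, with 13.4 and 13.2 CPM in controls below 19.0 and 16.6 CPM with chaetocin, although in chaetocin sample 2 KDM4C was lower, at 16.2 CPM.

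The KDM4 group removes trimethylation from H3K9 and also acts on H3K36. KDM4A (ENSG00000066135, chromosome 1, 43650158 to 43705515) had 60.8 and 57.5 CPM in controls and 46.4 and 56.6 CPM with chaetocin. Both chaetocin samples were lower than both controls, sample 2 by a narrow margin. Its log2 fold change was -0.20 (standard error 0.16, 95% interval -0.56 to 0.16, adjusted p = 0.521).
KDM4B (ENSG00000127663, chromosome 19, 4969113 to 5153595), known to be induced by hypoxia and by the estrogen receptor, had 1555 and 1498 reads in controls and 1005 and 1580 reads with chaetocin. These corresponded to 63.7 and 52.1 CPM in controls and to 46.2 and 44.5 CPM with chaetocin. The groups did not overlap, and the gap between the controls was larger than that between the chaetocin samples. Its log2 fold change was -0.35 (standard error 0.16, 95% interval -0.72 to 0.0098), for which edgeR's quasi-likelihood test gave an unadjusted p of 0.0551 and an adjusted p of 0.258.
KDM4C (ENSG00000107077, chromosome 9, 6720863 to 7175648), a gene amplified in some cancers, had 23.2 and 22.0 CPM in controls and 23.4 and 16.2 CPM with chaetocin. Only chaetocin sample 2 was below the controls. Its log2 fold change was -0.20 (standard error 0.21, 95% interval -0.67 to 0.28, adjusted p = 0.644), and it was 0.04 without chaetocin sample 2. Summed over the 3 genes, the KDM4 group had 148 and 132 CPM in controls and 116 and 117 CPM with chaetocin. The KDM3 group summed to 325 and 323 CPM in controls against 294 and 327 CPM with chaetocin. For KDM7A and PHF8 the sums were 45.8 and 48.1 CPM against 46.6 and 52.6 CPM. The sums are descriptions, without a test.

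KDM7A and PHF8 both combine a PHD finger with a JmjC domain. KDM7A (ENSG00000006459, chromosome 7, 140084746 to 140177035), which also acts on H3K27, had 327 and 378 reads in controls and 413 and 591 reads with chaetocin, or 13.4 and 13.2 CPM against 19.0 and 16.6 CPM. Both chaetocin samples were above both controls. The log2 fold change was 0.42 (standard error 0.18, 95% interval 0.0090 to 0.83), and its unadjusted p of 0.0462 became an adjusted p of 0.238 over the 16416 genes (edgeR's quasi-likelihood test). When single samples were dropped, the value of KDM7A lay between 0.33 (without chaetocin sample 1) and 0.51 (without chaetocin sample 2).
PHF8 (ENSG00000172943, chromosome X, 53936676 to 54048958), mutated in a form of X-linked intellectual disability, had 32.4 and 35.0 CPM in controls and 27.6 and 36.0 CPM with chaetocin. The chaetocin samples again lay on either side of the controls. On the log2 scale the difference was -0.08 (standard error 0.18, 95% interval -0.49 to 0.32, adjusted p = 0.839), and it was 0.10 without chaetocin sample 1.

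Across the 9 genes, 0 were called at an adjusted p under 0.05 by edgeR's quasi-likelihood test, where 1.85% of all genes tested were called. DESeq2's Wald test, which called 5.08% of all genes with an adjusted p, also called 0 of them. At an unadjusted p under 0.05, edgeR gave 1 of the 9, KDM7A, against 20.3% of all genes. DESeq2 gave 0 at that threshold, and its share over all genes was not worked out. Log2 fold changes were below 0 in 7 genes and above 0 in 2, with a median of -0.15, whereas the median over all genes tested was 0.0079. The median of the 9 was -0.061 without chaetocin sample 1 and -0.073 with upper-quartile normalization. The medians over all genes, counting those tested in both fits, were then 0.0026 and 0.085. The groups did not overlap in 4 of the 9 genes. Chaetocin was lower in 3 of them, KDM1A, KDM4A and KDM4B, against 26.0% of all genes, and higher in 1, KDM7A, against 26.8% of all genes.
The intervals, like the p-values, rest on the spread between these samples only. The lowest bound was a fold of 0.608, for KDM4B, and the highest a fold of 1.78, for KDM7A, so that a change of 2-fold or more lay outside the interval of every gene. For 6 of the 9 the interval also lay within 1.5-fold. The intervals were not adjusted for the number of genes. In 6 of the 9, the larger of the replicate differences exceeded the change between groups, and the exceptions were KDM1A, KDM4B and KDM7A. The median difference between replicates was 0.08 among the controls and 0.18 among the chaetocin samples on the log2 scale for the 9 genes, compared with 0.16 and 0.26 for all genes tested. Single samples moved several values. Log2 fold changes with 1 sample left out ranged from -0.50 (without control sample 2) to -0.22 (without control sample 1) for KDM4B, and from -0.36 (without chaetocin sample 2) to -0.06 (without chaetocin sample 1) for KDM4A. They ranged from -0.28 (without control sample 1) to -0.03 (without control sample 2) for JMJD1C, and from -0.16 (without control sample 2) to -0.0074 (without control sample 1) for KDM3A. KDM1A stayed between -0.20 and -0.17. The lowest value of the 9 was that of KDM4B without control sample 2, JMJD1C without control sample 1, KDM4C at -0.48 without chaetocin sample 1 and KDM4A without chaetocin sample 2, while KDM7A was the highest in each.
In bulk RNA, fewer cells with a transcript and fewer transcripts per cell cannot be told apart.

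**Figure D2:**
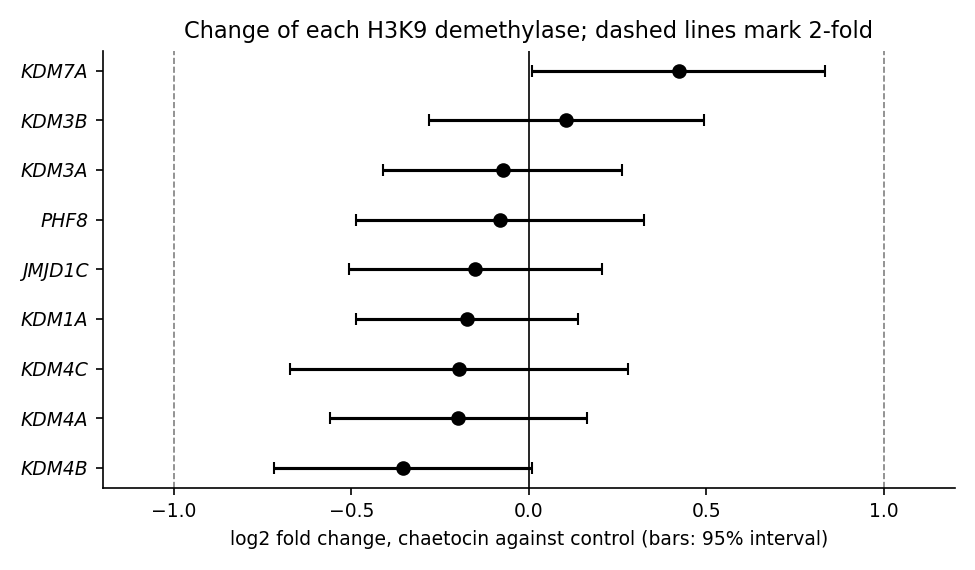
Log2 fold change of chaetocin against control for each gene (points) with its 95% interval (bars) from edgeR's quasi-likelihood fit; dashed lines mark a 2-fold difference. All bars lie between the dashed lines, from -0.72 at the lower end for KDM4B to 0.83 at the upper end for KDM7A.

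Levels were compared between genes as CPM per kb of merged exons, since longer transcripts collect more reads. KDM1A was the highest by this measure, with 16.3 ± 0.227 CPM per kb in controls and 14.4 ± 0.0346 with chaetocin (SD, n = 2 each). KDM3A followed with 13.1 ± 1.00 and 12.4 ± 0.375, and KDM4A with 11.4 ± 0.459 and 10.0 ± 1.40, in controls and with chaetocin respectively. JMJD1C and KDM3B had similar levels per kb, and their ranges over the 4 samples overlapped, from 6.84 to 8.78 and from 6.85 to 8.98. PHF8, at 3.06 to 3.99, and KDM4B, at 3.02 to 4.33, also overlapped. KDM4C, at 1.57 to 2.27, and KDM7A, at 1.39 to 2.01, formed the lower end and overlapped as well. The ranges of the other 5 pairs of neighbours in the order did not overlap. Among all genes tested with a known length, 81.0% had a lower level per kb than KDM1A and 36.0% a lower one than KDM7A.
The length used matters for this order. Per kb of the longest annotated transcript, KDM4B, whose merged exons span 14716 bases against 5703 bases in its longest transcript, moved from place 7 to place 5, and 6 of the 9 genes kept their place. In both orders the first 4 were KDM1A, KDM3A, KDM4A and JMJD1C, and KDM7A was last.

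**Figure D3:**
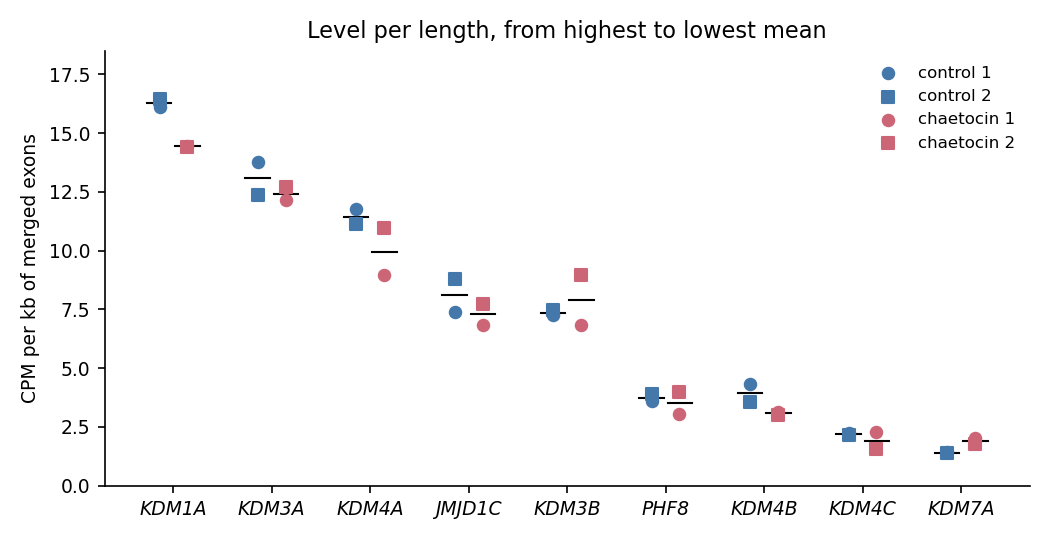
CPM per kb of merged exons (linear axis) of each gene and sample, ordered by the mean over the 4 samples, with circles for sample 1, squares for sample 2 and lines for group means. KDM1A, KDM3A and KDM4A stand at the top, and KDM4C and KDM7A overlap at the bottom, between 1.39 and 2.27 CPM per kb.

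The RefSeq promoter windows (250 bases before to 50 bases after a start, GRCh38.p14) held 14 entries for the 9 genes. Each gene had a window with at least 14 CpG dinucleotides, the median over all 35116 windows, and single windows ranged from 1 to 56. The windows were searched on both strands for ACGTG or GCGTG, the core letters of the hypoxia response element, because KDM3A, KDM4B and KDM4C are known hypoxia-induced genes. Of the 14 windows, 8 held a match, against 48.4% of all windows. These belonged to 7 of the 9 genes, since the windows of KDM3A overlap and hold the same match. The letters TGACNNNGC, the core of the antioxidant response element, occurred in 1 of the 14, that of KDM4C, against 13.3% of all windows. The windows of KDM4B and KDM7A are printed because these genes had the lowest and the highest log2 fold change, neither of which was called. A match is a description of the letters and not of a bound site. Capitals mark ACGTG or GCGTG on either strand, and a stretch of CACGTG holds a match on both.
The KDM4B window (chr19:4968863-4969162, plus strand) holds 43 CpG and 3 marked stretches.
KDM4B: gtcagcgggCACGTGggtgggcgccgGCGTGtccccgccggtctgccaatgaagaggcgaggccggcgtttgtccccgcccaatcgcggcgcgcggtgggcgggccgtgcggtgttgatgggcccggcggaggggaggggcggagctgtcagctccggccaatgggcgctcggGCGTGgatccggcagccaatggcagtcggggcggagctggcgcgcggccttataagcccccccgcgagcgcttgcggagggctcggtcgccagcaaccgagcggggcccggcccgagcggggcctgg
The KDM7A window (chr7:140176934-140177233, minus strand) holds 56 CpG and 2 marked stretches.
KDM7A: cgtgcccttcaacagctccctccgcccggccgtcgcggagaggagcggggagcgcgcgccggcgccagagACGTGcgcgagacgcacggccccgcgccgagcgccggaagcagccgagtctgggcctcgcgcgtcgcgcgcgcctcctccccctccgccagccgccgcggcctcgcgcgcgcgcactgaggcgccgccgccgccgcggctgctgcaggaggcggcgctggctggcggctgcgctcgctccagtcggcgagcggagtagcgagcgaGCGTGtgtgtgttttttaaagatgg

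Another 4 lists of related genes were read from the same fit. Of 16 other lysine demethylases, 13 were tested and 0 were called by edgeR's quasi-likelihood test, with 4 at an unadjusted p under 0.05, while DESeq2 called 1, KDM6B. Over all genes tested edgeR called 1.85%, DESeq2 called 5.08%, and 20.3% had an unadjusted p under 0.05 by edgeR. In a fit with 1 sample left out, the lone sample of that group is assumed to vary like the 2 samples of the other group. Such fits called 17.0% of all genes without chaetocin sample 1, 9.82% without chaetocin sample 2, 1.74% without control sample 1 and 2.10% without control sample 2, so that calls in the first 2 are to be read against those shares. Among the other demethylases they called KDM4D, KDM5C and KDM6B without chaetocin sample 1, KDM5B and KDM6B without chaetocin sample 2, and KDM6B without control sample 1. KDM4E and RIOX1 had no read in any sample. The median log2 fold change was 0.03. The highest value was that of KDM4D, a further H3K9 demethylase of the KDM4 group, with 1.68 and 1.36 CPM in controls and 2.67 and 3.46 CPM with chaetocin (log2 fold change 1.02, adjusted p = 0.137). The lowest was that of KDM5B, an H3K4 demethylase, with 87.9 and 90.0 CPM against 64.2 and 69.0 CPM (log2 fold change -0.42, adjusted p = 0.15). KDM6B, an H3K27 demethylase singled out after its values were seen, had 19.6 and 14.9 CPM in controls and 28.1 and 40.7 CPM with chaetocin (log2 fold change 1.00, adjusted p = 0.0653 by edgeR and 0.00677 by DESeq2). Over the 10 alternatives the adjusted p of KDM6B lay between 6.7e-05 and 0.195.

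KDM1A works in complexes with CoREST proteins, histone deacetylases and zinc finger proteins. Of 16 such partners, 13 were tested, and 1 was called, ZMYM3, a zinc finger protein of these complexes. Over all genes 1.85% were called. At an unadjusted p under 0.05 there were 4 of the 13 partners, against 20.3% of all genes. The number called ran from 0 to 4 over the alternatives. It was 4 (CTBP1, GSE1, ZMYM2 and ZMYM3) without chaetocin sample 1, where 17.0% of all genes were called, 2 (PHF21A and ZMYM3) without chaetocin sample 2, where 9.82% were, and 0 without control sample 1. ZMYM3 fell from 91.0 and 79.3 CPM in controls to 45.8 and 51.2 CPM upon chaetocin treatment. Its log2 fold change was -0.81 (standard error 0.15, 95% interval -1.16 to -0.46), and the adjusted p by edgeR's quasi-likelihood test was 0.0424. Its adjusted p was 0.0557 with upper-quartile normalization, 0.0562 when every sample needed 10 counts, and 0.232 without control sample 1, and it was at most 0.044 in the other 7 alternatives. Values were below 0 in 11 of the 13 partners, with a median of -0.27 against 0.0079 over all genes tested. The highest value was that of HMG20B, at 0.16 (adjusted p = 0.667). Both chaetocin samples were below both controls in 8 partners and above in 0, against 26.0% and 26.8% of all genes tested. RCOR2 and GFI1B, with at most 6 reads in a sample, and GFI1, with none in the controls, were under the filter.

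On the opposing side, 15 of 16 genes for H3K9 methyltransferases and their readers were tested, UHRF1 not being matched to an identifier. By edgeR's quasi-likelihood test 0 were called, against 1.85% of all genes, and 1 had an unadjusted p under 0.05, against 20.3%. DESeq2 called 1, TRIM28, against 5.08% of all genes. With a lone chaetocin sample, ATF7IP and TRIM28 were called without chaetocin sample 1 (17.0% of all genes) and TRIM28 without chaetocin sample 2 (9.82% of all genes). The median log2 fold change was 0.10. TRIM28, the KAP1 corepressor that recruits SETDB1, had the highest value, with 342 and 335 CPM in controls and 487 and 750 CPM with chaetocin (log2 fold change 0.87, adjusted p = 0.0835 by edgeR and 0.00533 by DESeq2, and from 8.7e-05 to 0.289 over the alternatives). Its log2 fold change was 0.52 without chaetocin sample 2 and 1.15 without chaetocin sample 1. WIZ, a partner of EHMT1 and EHMT2, had the lowest, at -0.13 (adjusted p = 0.672). Of the 13 genes that supply 2-oxoglutarate or flavin, all were tested and 0 were called by edgeR or by DESeq2, against 1.85% and 5.08% of all genes. At an unadjusted p under 0.05 each tool gave 2. By edgeR 20.3% of all genes had such a p, and the share by DESeq2 was not worked out. With a lone chaetocin sample, GLUD1 and IDH3G were called without chaetocin sample 1 (17.0% of all genes) and GOT2 without chaetocin sample 2 (9.82% of all genes). Their median was 0.02. GOT2, the mitochondrial aspartate aminotransferase, had the lowest value at -0.43 (adjusted p = 0.151).

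**Figure D4:**
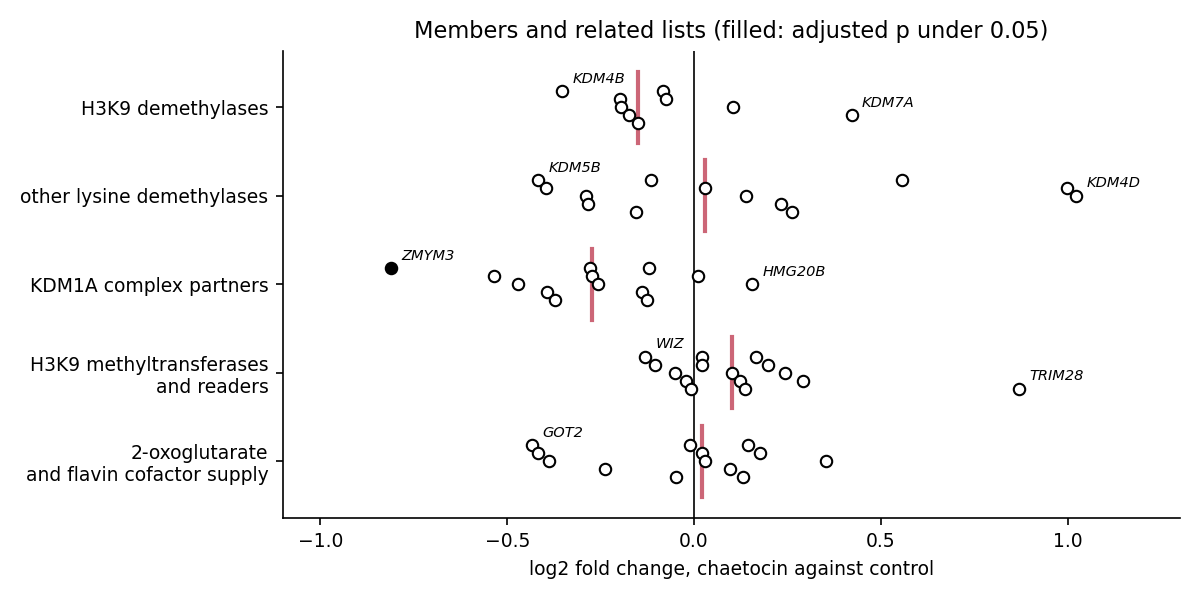
Log2 fold change of chaetocin against control for each tested gene of the 9 demethylases and of 4 related lists, 1 circle per gene, with the median of each list as a vertical line and filled circles for an adjusted p under 0.05. ZMYM3, at -0.81, is the filled circle, and the 9 demethylases lie between -0.35 and 0.42.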

How the data were processed

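The authors deposited raw read counts per Ensembl gene, 1 table per sample, from poly(A) RNA sequenced as single-end reads of 50 bases. The submitters' processing notes name cutadapt, TopHat, TopHat2, SAMtools and the build GRCh37. The counting tool and the strand setting are not given in the sources used here. Symbols, positions and lengths came from GENCODE v29 on GRCh38 by identifier, which matched 52338 of 57905 identifiers. Counts were tested with edgeR 4.0.16 in R 4.3.3, after the default filter of filterByExpr, whose minimum count is 10, and TMM scaling, by a robust quasi-likelihood fit on the group alone and Benjamini-Hochberg adjustment over all genes tested, at a threshold of 0.05. Standard errors and 95% intervals came from the log2 fold change, the F statistic and its degrees of freedom. The scripts were checked on simulated data. Alternatives included DESeq2 1.42.0, the study's tool. The genes and lists were chosen with earlier results of these data known. The text names all 9 demethylases and, of each related list, called genes, the highest and lowest log2 fold change and genes without a read in a group. Genes called in an alternative alone were named after their values were seen. A gene that the rule names in the cofactor list is not reported here.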

Additional observations from a re-analysis of the deposited data

How the results depend on the processing

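In none of 10 alternatives that changed the normalization, the filter, the tool, the block or the samples was any of the 9 demethylases called. With no sample left out, the lowest adjusted p of the 9 was 0.157, for KDM4B with the replicate block by edgeR's quasi-likelihood test. Upper-quartile normalization put KDM3A at 0.0018 (log2 fold change), and the median of all genes moved by 0.08. With each sample left out in turn, log2 fold changes ranged from -0.11 to 0.29 for KDM3B, from -0.48 to 0.043 for KDM4C and from -0.30 to 0.10 for PHF8, and the directions of the other 6 held. The replicate numbers of the titles share no stated day or culture, and the deviations of same-numbered samples from their group means correlated with r = 0.123 across genes. With the replicate block, 1036 genes were higher and 1053 lower in place of 182 and 122. The blocked fit also drew each gene's variance more strongly toward that of other genes (median prior degrees of freedom 41.5 against 6.29). The part of this in the larger counts was not tested. With the block, the log2 fold changes of KDM7A and KDM4B were 0.42 and -0.35. It called 1 other demethylase (KDM6B) and 3 KDM1A partners (PHF21A, ZMYM2 and ZMYM3). It also called 1 methyltransferase or reader (TRIM28) and 1 cofactor gene (GOT2), against 12.7% of all genes. Without the block, the counts of genes higher and lower at an unadjusted p under 0.05 were 1791 and 1548, and 1 of the 9 demethylases, KDM7A, passed. At an adjusted p under 0.05 the counts were 787 and 759 without a filter, 114 and 80 when every sample needed 10 counts, and 382 and 478 with DESeq2. With a sample left out they ranged from 215 to 1332 higher and from 97 to 1673 lower. Medians under upper-quartile normalization were -0.073 for the 9 demethylases, 0.11 for other demethylases, -0.20 for KDM1A partners and 0.18 for H3K9 methyltransferases and readers, and the last was 0.12 when every sample needed 10 counts. With a sample left out, medians ranged from -0.18 to -0.061 for the 9 demethylases, from -0.054 to 0.097 for other demethylases, from -0.30 to -0.24 for KDM1A partners, from 0.015 to 0.11 for methyltransferases and readers and from -0.079 to 0.065 for cofactor genes. Per kb of the longest transcript, 6 genes kept their place by level. Single-sample removals that changed a direction were chaetocin sample 2 for KDM3B and KDM4C and chaetocin sample 1 for PHF8. In each case the cause was not tested.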
